A study of Mus musculus with 6 samples.

Results

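Cholesterol synthesis and transport genes were examined in RNA-seq libraries of the mouse dentate gyrus, the hippocampal region whose main neurons are the granule cells. The group is a list of 31 genes matched by gene symbol in the deposited table of 54040 genes. All 31 were found once each, and all 31 passed the filter on low counts with 16928 genes of the table in all. They comprise 18 enzymes that make cholesterol, 5 proteins that control the sterol-sensing transcription factors, 6 proteins of cholesterol uptake and transport and 2 enzymes of storage and turnover. The study compared 3 libraries labelled cKO, from dentate gyrus deficient in the m6A reader YTHDF2, with 3 libraries labelled Ctrl, from negative control dentate gyrus. YTHDF2 binds messages that carry N6-methyladenosine and promotes their decay. All 6 libraries came from C57BL/6 mice at postnatal day 40. The labels name granule cells as the cell type but dentate gyrus as the tissue, and they mention no sorting. The sources used here do not give the driver of the knockout, the deleted exons or the alleles carried by the controls. Nor do the labels say whether replicates are separate animals, and every p-value therefore refers only to the spread among the 6 libraries.

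Cells build cholesterol from acetyl-CoA through mevalonate, isoprenoid diphosphates, squalene and lanosterol. The supply is adjusted by the transcription factors SREBP-1 and SREBP-2, encoded by Srebf1 and Srebf2. When membrane sterol is low, SCAP carries the SREBP precursors from the endoplasmic reticulum to the Golgi for cleavage, and INSIG proteins hold SCAP back when sterol is plentiful. Lipoprotein cholesterol does not cross the blood-brain barrier to any large extent, so the brain makes its own. Astrocytes and oligodendrocytes are known as major producers in the adult brain, and neurons remove excess cholesterol through the hydroxylase CYP46A1.

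Library totals ran from 16794642 counts in cKO replicate 2 to 19190101 in Ctrl replicate 3. A single count was worth 0.0521 to 0.0595 CPM (counts scaled to a total of 1e+06). The cholesterol genes other than Fdps held 171 to 3134 counts in each library, and Fdps held 12 to 24. Ythdf2 itself, as a check of the labels, measured 56.7, 56.4 and 54.4 CPM in cKO replicates 1 to 3, against 37.8, 68.5 and 68.3 CPM in Ctrl replicates 1 to 3. The library labelled Ctrl replicate 1 was thus below every cKO library for the targeted gene. It was kept in its labelled group, and results that rest on it are given with and without it. In dentate tissue fewer cells of a type and less RNA per cell cannot be told apart. Values below are CPM scaled by the trimmed mean of M-values (TMM), and positive log2 fold changes mean higher in cKO. Coordinates are those of the deposited table on GRCm38. Adjusted p-values come from the quasi-likelihood test of edgeR, adjusted by Benjamini-Hochberg over the 16928 tested genes. A gene was called at an adjusted p under 0.05.

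SREBP acts on sterol regulatory elements close to the start sites of many cholesterol genes, together with NF-Y at CCAAT boxes and Sp1 at GC boxes. The promoters of 3 synthesis genes with negative fold changes and of Scap, the gene that passed the test, are shown to let the motif content be seen next to the measured changes. Each is the stretch of 250 bases before the RefSeq start on GRCm38.p6, read 5′ to 3′ on the strand of the gene. Capitals mark the sterol regulatory element TCACNCCAC and the CCAAT box, on either strand, so that a CCAAT box on the other strand reads ATTGG. The windows are chr13:119690101-119690350 on the plus strand (Hmgcs1), chr13:8885356-8885605 on the plus strand (Idi1), chr8:64733579-64733828 on the minus strand (Msmo1) and chr9:110333038-110333287 on the plus strand (Scap, the first of its 2 RefSeq starts).
Hmgcs1: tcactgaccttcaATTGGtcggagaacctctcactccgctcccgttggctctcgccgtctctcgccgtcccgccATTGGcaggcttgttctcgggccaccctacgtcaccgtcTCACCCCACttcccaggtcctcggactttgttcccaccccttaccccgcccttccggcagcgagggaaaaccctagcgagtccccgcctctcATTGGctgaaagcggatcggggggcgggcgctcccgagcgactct
Idi1: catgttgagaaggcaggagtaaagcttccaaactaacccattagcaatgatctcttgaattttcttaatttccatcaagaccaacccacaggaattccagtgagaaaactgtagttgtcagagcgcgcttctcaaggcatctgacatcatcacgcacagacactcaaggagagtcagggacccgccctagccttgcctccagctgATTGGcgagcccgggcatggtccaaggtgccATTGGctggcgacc
Msmo1: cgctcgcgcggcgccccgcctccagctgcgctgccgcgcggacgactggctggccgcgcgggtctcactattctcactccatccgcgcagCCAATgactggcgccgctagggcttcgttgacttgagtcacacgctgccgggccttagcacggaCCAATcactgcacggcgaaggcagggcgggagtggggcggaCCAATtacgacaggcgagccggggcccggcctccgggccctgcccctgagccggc
Scap: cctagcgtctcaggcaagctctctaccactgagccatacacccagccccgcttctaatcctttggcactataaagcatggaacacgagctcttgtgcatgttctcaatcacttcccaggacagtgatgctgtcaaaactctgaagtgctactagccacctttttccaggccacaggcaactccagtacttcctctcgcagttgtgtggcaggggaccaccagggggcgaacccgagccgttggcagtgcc

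In Hmgcs1 the sterol regulatory element began 137 bases before the start, and CCAAT boxes began at -237, -176 and -45, where -1 is the base just before the start. Msmo1 had CCAAT boxes at -160, -96 and -55, and Idi1 had them at -45 and -14. The Scap window held neither motif. RefSeq gave such windows for 25 of the 31 genes. A match to TCACNCCAC on either strand was found in 1 of the 25 genes, Hmgcs1, and in 1.22% of all 27025 genes with a window. A CCAAT box was found in 21 of the 25 genes and in 37.5% of all genes. The GC box GGGCGG occurred in 22 of the 25 genes and in 35.4% of all genes, and the E box CACGTG in 6 of the 25 and in 6.86% of all genes. All motifs were searched on both strands, no base of the printed windows belonged to more than 1 of them, and genes with several starts were counted once. A match describes these letters and is not a bound site. The fold changes of the genes with a CCAAT box ran in both directions, as the values below show. Lss and Sc5d had a CCAAT box and positive values. Acat2 had a negative value and a window with neither a CCAAT box nor the sterol regulatory element.

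Transcript levels per length, as deposited FPKM (fragments scaled by gene length and library size), differed widely among the 31 genes. Cyp46a1 was highest with 50.2 ± 1.98 FPKM in cKO and 45 ± 1.21 FPKM in Ctrl (SD, n = 3 each). Srebf2 followed with 23.7 ± 0.813 and 22.8 ± 0.68 FPKM in cKO and Ctrl, and Hmgcs1 with 21.3 ± 0.449 and 24.1 ± 0.933 FPKM in cKO and Ctrl. Srebf2 and Hmgcs1 did not keep one order between the groups, so their neighbouring ranks are not separated. Sc5d, Insig2, Abcg1 and Pmvk formed the next tier, with cKO means of 17.9, 15.9, 15.3 and 14.2 FPKM and Ctrl means of 16.7, 16.1, 16.5 and 14.4 FPKM. The middle of the range included Lrp8, Scap, Insig1, Cyp51, Fdft1, Ebp and Msmo1, with group means between 7.85 and 13.1 FPKM. Near the bottom stood Stard4, with 1.84 ± 0.0665 FPKM in cKO and 1.98 ± 0.255 FPKM in Ctrl. Fdps, farnesyl diphosphate synthase, was lowest with 0.312 ± 0.0207 FPKM in cKO and 0.249 ± 0.0702 FPKM in Ctrl. The count of Fdps is uncertain. Its exons overlap those of Gm43738 on the same strand over 26.7% of their length, and Gm43738 is listed with 0 counts in every library. Processed pseudogenes share part of its sequence, and Gm3571, which shares 12.1% of its 50-base words, held 22, 44 and 50 counts in cKO and 37, 44 and 54 counts in Ctrl, against 24, 21 and 24 counts in cKO and 21, 12 and 23 counts in Ctrl for Fdps.

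**Figure D1:**
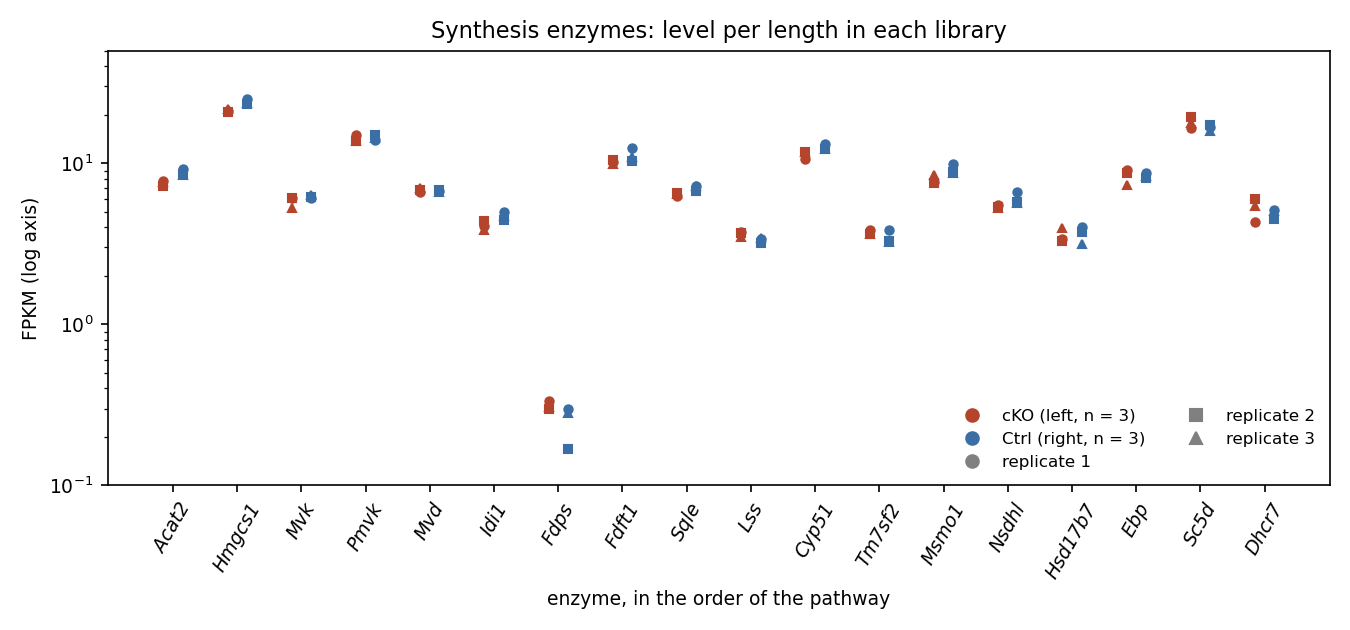
FPKM of the 18 synthesis enzymes in each library on a log axis, ordered along the pathway, with cKO libraries to the left of Ctrl libraries for each enzyme and 1 symbol shape per replicate number. Hmgcs1 was highest, with means of 21.3 FPKM in cKO and 24.1 FPKM in Ctrl, and Fdps stood far below the others, with means of 0.312 FPKM in cKO and 0.249 FPKM in Ctrl.

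Of the 31 cholesterol genes, 1 passed the test between cKO and Ctrl. Scap rose, no gene fell and 30 did not pass. Over all tested genes 3.95% were called, 3.07% as higher in cKO and 0.874% as lower, so 1 call among 31 genes lies near the background and is no result about the group. An unadjusted p under 0.05 was found for 7 of the 31 genes, and for 17.6% of all tested genes. The 31 log2 fold changes comprised 13 positive and 18 negative values with a median of -0.02, where 50.3% of all tested genes were negative and the median of all was -0.001. The 3 cKO libraries lay below the 3 Ctrl libraries without overlap in 9 of the 31 genes, where 10.5% of all tested genes did. They lay above without overlap in 4 genes, where 12.5% of all tested genes did, which makes 13 genes without overlap, where 22.9% of all did. The differences were small throughout. The 95% intervals of the 29 uncalled genes other than Fdps all lay between log2 fold changes of -0.39 and 0.31. The median coefficient of variation among replicates was 4.01% in cKO and 5.05% in Ctrl.

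**Figure D2:**
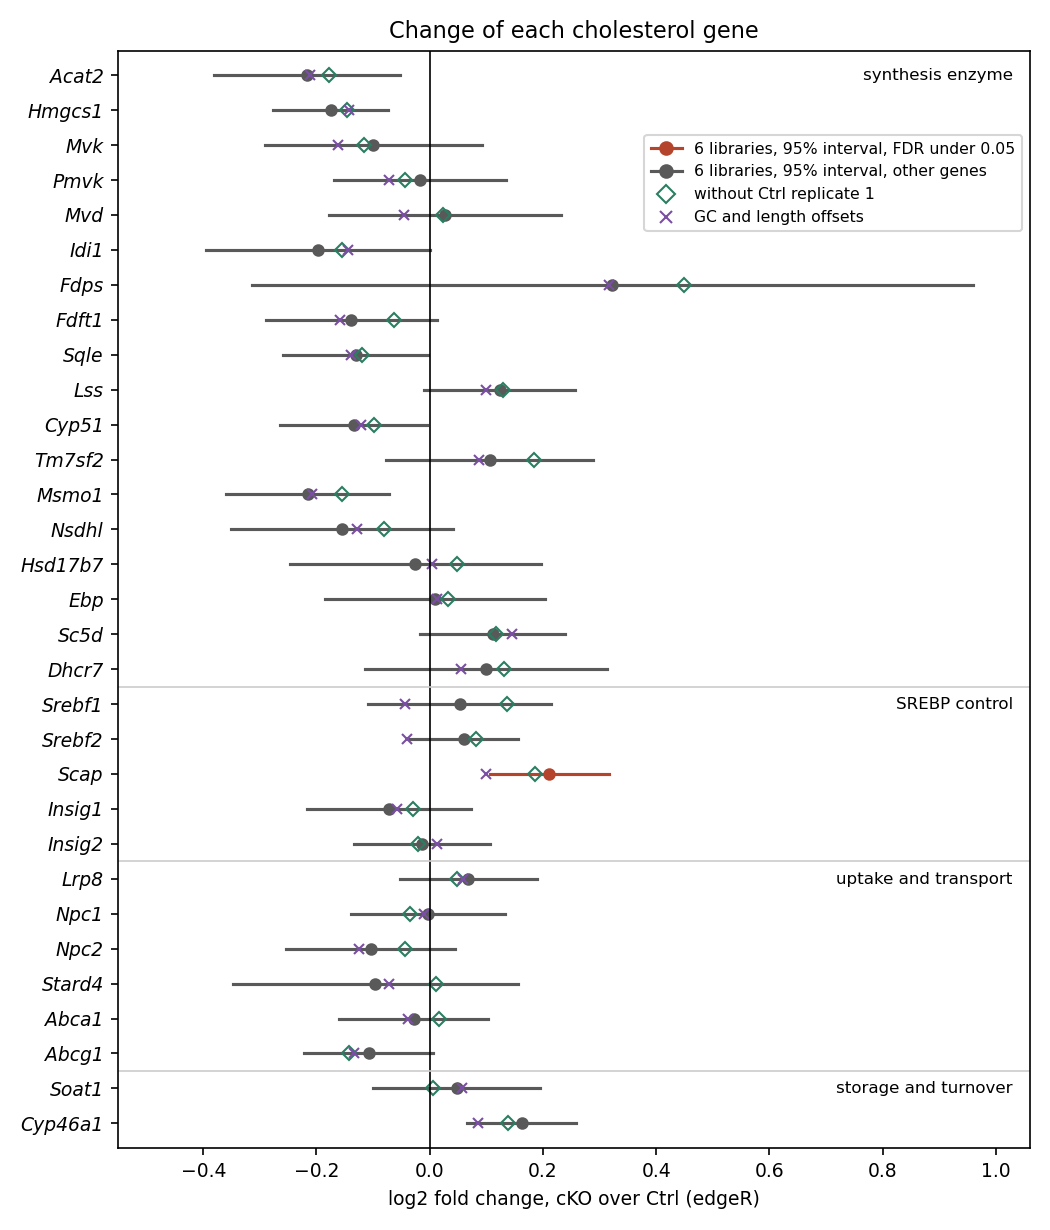
Log2 fold change, cKO over Ctrl, of the 31 genes grouped by role, with the edgeR value and 95% interval from 6 libraries as filled circles and lines, the value without Ctrl replicate 1 as open diamonds and the value with GC and length offsets as crosses. Scap at 0.21 was the gene with an adjusted p under 0.05, and Fdps had the widest interval, from -0.31 to 0.96.

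The synthesis enzymes held 8 of the 9 genes whose cKO libraries all lay below the Ctrl libraries. Over all tested genes 10.5% lay below in this way. In 2 of the 18 enzymes, Lss and Fdps, the cKO libraries all lay above. None of the 18 enzymes passed edgeR's test. Their median log2 fold change was -0.06, with 11 negative and 7 positive values, and -0.10 without the low-count Fdps. An unadjusted p under 0.05 was found for 5 of them, and for 17.6% of all tested genes. DESeq2 called 1 enzyme, Hmgcs1, and limma-voom called 0. Calls by DESeq2 and limma-voom, here and below, are given without the number of all genes called and so stand without a background. Summed over the 18 enzymes, the level was 142.2, 145.7 and 143.0 FPKM in cKO, against 157.7, 148.3 and 148.5 FPKM in Ctrl. The cKO sums lay below all Ctrl sums, and the library labelled Ctrl replicate 1 had the highest. The means were 143.6 ± 1.83 FPKM in cKO and 151.5 ± 5.35 FPKM in Ctrl (SD, n = 3 each), a difference of -7.86 FPKM or -5.19%. Without the library labelled Ctrl replicate 1 the difference was -4.77 FPKM, and the median log2 fold change was -0.05. The median moved to -0.10 without Ctrl replicate 3.

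The first steps of the pathway, which turn acetyl-CoA into HMG-CoA, had lower values in cKO. Hmgcs1, cytosolic HMG-CoA synthase (ENSMUSG00000093930, plus strand of chromosome 13 from 119690379 to 119708260), measured 97.7, 96.3 and 100 CPM in cKO, against 116, 107 and 109 CPM in Ctrl. All cKO libraries lay below all Ctrl libraries. Its log2 fold change was -0.18 ± 0.05 (SE), with a 95% interval from -0.28 to -0.07 and an adjusted p of 0.0539. Over the 17 alternative settings its adjusted p ran from 0.0225 to 0.156, and 5 of them called it lower. Leaving out the library labelled Ctrl replicate 1 gave a log2 fold change of -0.15 (edgeR, adjusted p = 0.132). Acat2, cytosolic acetoacetyl-CoA thiolase (minus strand of chromosome 17 from 12942890 to 12960747), measured 19.7, 18.5 and 19.5 CPM in cKO, against 23.7, 21.8 and 21.6 CPM in Ctrl. The groups did not overlap here either, and the log2 fold change was -0.22 ± 0.08 (SE, adjusted p = 0.146). It was -0.18 without the library labelled Ctrl replicate 1 (edgeR, adjusted p = 0.33). Acat2 shares 39.1% of its 50-base words with its paralog Acat3, so its count is uncertain. Acat3 held 73, 62 and 94 counts in cKO and 67, 63 and 85 counts in Ctrl. Acat2 also shares 11.2% of these words with Tcp1, a chaperonin subunit gene, which held 2116, 1916 and 2164 counts in cKO and 2214, 2186 and 2417 counts in Ctrl. The Tcp1 counts were thus lower in every cKO library than in every Ctrl library, before scaling, and their part in the value of Acat2 was not tested.

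The mevalonate and isoprenoid steps gave values on both sides of 0. Mvk, mevalonate kinase, measured 16.3, 16.3 and 14.1 CPM in cKO, against 16.4, 16.6 and 17 CPM in Ctrl, groups that touch without overlapping (log2 fold change -0.10, adjusted p = 0.625). Pmvk, phosphomevalonate kinase, measured 23.7 to 25.6 CPM in cKO and 23.9 to 25.5 CPM in Ctrl. Mvd, mevalonate diphosphate decarboxylase, measured 12.3 to 13.2 CPM in cKO and 12.3 to 12.7 CPM in Ctrl. These 2 enzymes had fold changes of -0.02 and 0.03 on the log2 scale and overlapped fully. Idi1, isopentenyl diphosphate isomerase (plus strand of chromosome 13 from 8885501 to 8892451), measured 14.4, 15.4 and 13.6 CPM in cKO, against 17.6, 15.5 and 16.5 CPM in Ctrl. The groups came close without overlapping, in cKO replicate 2 and Ctrl replicate 2. The log2 fold change of Idi1 was -0.20, with a 95% interval from -0.39 to 0.00 and an adjusted p of 0.287. Idi1 shares 17.7% of its 50-base words with the pseudogene Gm13502, which held at most 12 counts in a library. Fdps, the next enzyme, measured 1.42, 1.25 and 1.29 CPM in cKO, against 1.25, 0.71 and 1.19 CPM in Ctrl, and its 95% interval from -0.31 to 0.96 leaves the direction undetermined at this depth. With 21 counts in both cKO replicate 2 and Ctrl replicate 1, its lack of overlap rests on the scaling alone.

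From squalene onward the enzymes split between lower and higher values. Fdft1, squalene synthase, measured 43.1, 44.5 and 41.8 CPM in cKO, against 52.8, 43.7 and 46.1 CPM in Ctrl, with overlap between the groups (log2 fold change -0.14, adjusted p = 0.332). Its exons overlap those of Ctsb on the opposite strand over 18.3% of their length, so its count is uncertain. The log2 fold change of Fdft1 was -0.06 without the library labelled Ctrl replicate 1 (edgeR, adjusted p = 0.709). Sqle, squalene epoxidase, measured 35.1, 36.4 and 35.9 CPM in cKO, against 40.1, 37.6 and 39.9 CPM in Ctrl, without overlap (log2 fold change -0.13, adjusted p = 0.276). Lss, lanosterol synthase, which acts directly after Sqle, ran the other way, with 40.5, 39.8 and 37.6 CPM in cKO against 36.6, 34.4 and 37.1 CPM in Ctrl. These groups did not overlap either, and the log2 fold change was 0.12 with an adjusted p of 0.326. Cyp51, lanosterol demethylase, measured 47.4, 52.4 and 51.7 CPM in cKO, against 58.6, 53.8 and 54.0 CPM in Ctrl, without overlap (log2 fold change -0.13, adjusted p = 0.263).

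Among the enzymes that trim and reduce the sterol ring, the methyl-sterol oxidase Msmo1 had the most negative value. Msmo1 (ENSMUSG00000031604, minus strand of chromosome 8 from 64718139 to 64733792) measured 46.9, 46.7 and 51.9 CPM in cKO, against 61.4, 54.5 and 53.2 CPM in Ctrl. The groups did not overlap, and the library labelled Ctrl replicate 1 was highest. Its log2 fold change was -0.22 ± 0.07 (SE, adjusted p = 0.0928), and -0.16 without that library (adjusted p = 0.248). The adjusted p ran from 0.0194 to 0.248 over the alternative settings, 1 of which called it. Nsdhl, which works beside Msmo1 in removing the methyl groups, measured 15.8, 15.3 and 15.1 CPM in cKO, against 19, 16.3 and 16.2 CPM in Ctrl, without overlap (log2 fold change -0.15, adjusted p = 0.42). The log2 fold change of Nsdhl was -0.08 without the library labelled Ctrl replicate 1 (edgeR, adjusted p = 0.755). Hsd17b7, the ketoreductase of the same complex, overlapped between the groups, with 16.9 to 20.4 CPM in cKO and 16.2 to 20.6 CPM in Ctrl. The later enzymes Ebp, Sc5d and Dhcr7 had positive values with overlap, as did Tm7sf2, which stands between Cyp51 and Msmo1 in the pathway order. Sc5d, sterol C5-desaturase, measured 81.3, 94.3 and 87.7 CPM in cKO, against 82.3, 84.6 and 76.8 CPM in Ctrl (log2 fold change 0.11, adjusted p = 0.363). Dhcr7, 7-dehydrocholesterol reductase, measured 25.3, 34.9 and 31.8 CPM in cKO, against 30.1, 26.2 and 29.5 CPM in Ctrl (0.10, adjusted p = 0.663). Its cKO libraries had the widest replicate spread of the 30 genes other than Fdps, a coefficient of variation of 16.0%. Tm7sf2, a sterol C14-reductase, and Ebp, the sterol isomerase, had log2 fold changes of 0.11 and 0.01, with adjusted p-values of 0.577 and 0.977. Tm7sf2 overlaps Vps51 on the same strand over 12.1% of its exons, so its count is uncertain.

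**Figure D3:**
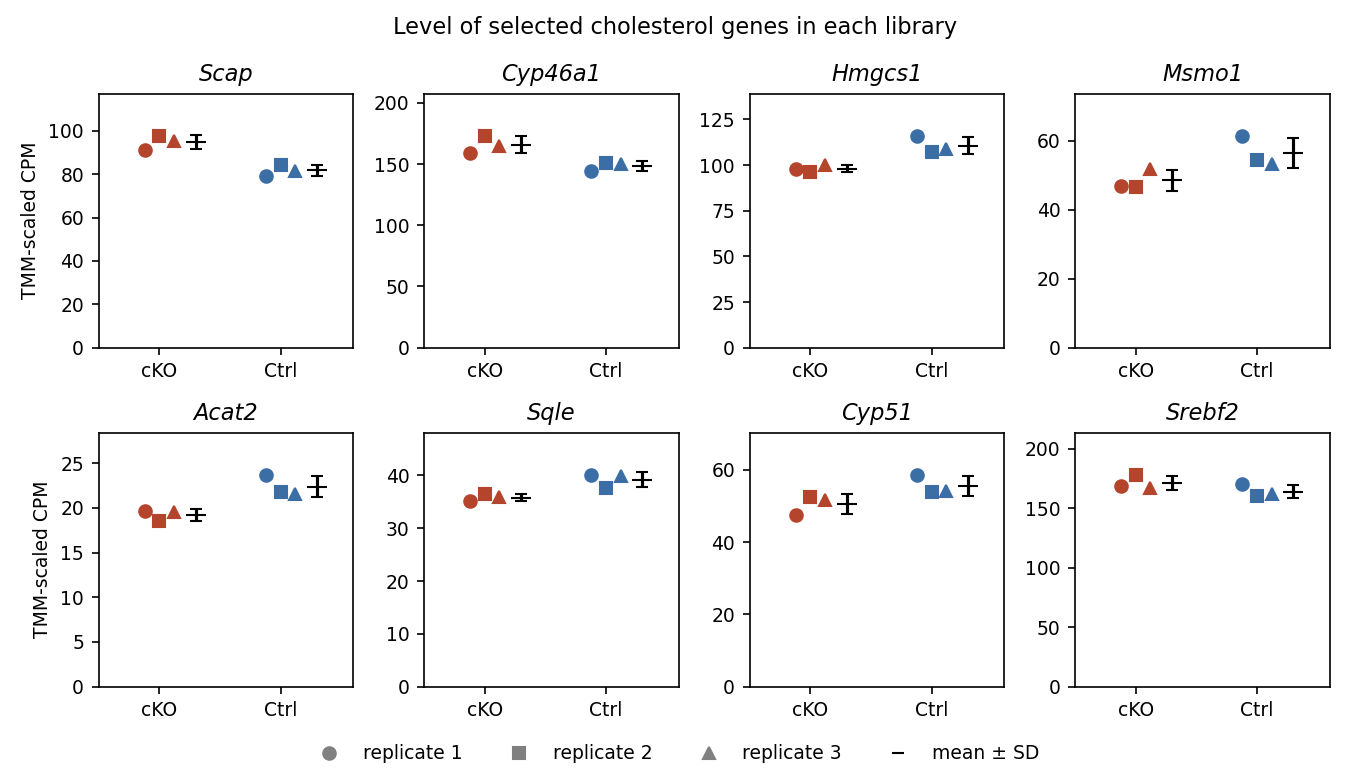
TMM-scaled CPM of 8 genes in each library, with replicates 1, 2 and 3 as circles, squares and triangles and the mean ± SD of 3 libraries beside them; every axis starts at 0. Scap and Cyp46a1 were higher in all cKO libraries, Hmgcs1, Msmo1, Acat2, Sqle and Cyp51 were lower in all cKO libraries, and Srebf2 overlapped between the groups.

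Among the 5 control genes, Scap, the sterol sensor that escorts SREBP, rose in cKO. Scap (ENSMUSG00000032485, plus strand of chromosome 9 from 110333288 to 110384950) measured 91.2, 97.7 and 95.2 CPM in cKO, against 79.4, 84.3 and 81.6 CPM in Ctrl. Every cKO library lay above every Ctrl library. The means were 94.7 ± 3.30 CPM in cKO and 81.8 ± 2.44 CPM in Ctrl (SD, n = 3 each), which is 1.16-fold. The log2 fold change was 0.21 ± 0.05 (SE), with a 95% interval from 0.11 to 0.32 and an adjusted p of 0.0266. The value stayed positive in all 17 alternative settings, from 0.10 to 0.24, and 10 of them called it. The call was lost without the library labelled Ctrl replicate 1 (0.19, adjusted p = 0.0741), Ctrl replicate 3 (0.21, adjusted p = 0.0718), cKO replicate 2 (0.19, adjusted p = 0.0987) or cKO replicate 3 (0.21, adjusted p = 0.114). On log2(FPKM + 0.1) and log2(FPKM + 1) the adjusted p was 0.0946 and 0.0955. With per-library offsets for GC content and length, chosen after the data were seen, the log2 fold change was 0.10 with an adjusted p of 0.305. The transcript 5830462I19Rik lies over 13.2% of the Scap exons on the opposite strand and held 30, 31 and 33 counts in cKO and 10, 19 and 12 counts in Ctrl. Scap itself held 1334 to 1770 counts per library. The sources used here do not say whether counting used strand, so reads of the overlap cannot be assigned to one of them.

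The transcription factor genes and the INSIG genes overlapped between the groups. Srebf2, which encodes the main activator of cholesterol synthesis genes, measured 169, 178 and 167 CPM in cKO, against 170, 160 and 162 CPM in Ctrl (log2 fold change 0.06, adjusted p = 0.533). Srebf1, whose main targets make fatty acids, measured 39.2, 36.3 and 36.9 CPM in cKO, against 40.5, 34.2 and 33.8 CPM in Ctrl (0.05, adjusted p = 0.782). Both values were negative, at -0.04, with GC and length offsets. Insig1, itself a target of SREBP, measured 37.2, 39.5 and 35.9 CPM in cKO, against 42.0, 39.5 and 36.8 CPM in Ctrl (log2 fold change -0.07, adjusted p = 0.639). Insig2, the form that depends less on SREBP, measured 53.4 to 57.3 CPM in cKO and 53.7 to 58.5 CPM in Ctrl. None of these 4 genes was separated between the groups.

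The uptake and transport genes did not pass the test, and 5 of the 6 had negative values (median log2 fold change -0.06). The unadjusted p was at least 0.05 for each of them, and neither DESeq2 nor limma-voom called any. Abcg1, which exports cholesterol to lipoprotein particles, was the gene of this class without overlap. It measured 62.7, 62.9 and 61.9 CPM in cKO, against 64.5, 71.0 and 66.6 CPM in Ctrl (log2 fold change -0.11, adjusted p = 0.311). Abca1, the exporter that loads lipid-poor apolipoproteins, measured 46.1, 45.9 and 47.5 CPM in cKO, against 50.7, 47.6 and 44.3 CPM in Ctrl. The Abca1 groups overlapped, with a log2 fold change of -0.03. Npc1 and Npc2, which pass cholesterol out of late endosomes and lysosomes, had values of -0.0035 and -0.10. Npc2 measured 44.4, 43.1 and 41.7 CPM in cKO, against 50.4, 46.8 and 41.7 CPM in Ctrl, and Npc1 measured 61.1 to 67.4 CPM in cKO and 61.9 to 71.2 CPM in Ctrl. Stard4, a soluble sterol carrier, measured 10.8, 10.2 and 10.1 CPM in cKO, against 12.7, 10.2 and 10.3 CPM in Ctrl. Its log2 fold change of -0.10 turned to 0.01 without the library labelled Ctrl replicate 1, and that of Abca1 turned to 0.02. The value of Npc2 was -0.04 without this library. Lrp8, a lipoprotein and reelin receptor of neurons, was the gene of this class with a positive value. It measured 128, 150 and 138 CPM in cKO, against 130, 130 and 137 CPM in Ctrl (log2 fold change 0.07, adjusted p = 0.591).

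Both genes of storage and turnover had positive values, and edgeR called neither while DESeq2 called Cyp46a1 and limma-voom neither. Cyp46a1, the neuronal hydroxylase that turns cholesterol into 24S-hydroxycholesterol (ENSMUSG00000021259, plus strand of chromosome 12 from 108334381 to 108362234), measured 159, 173 and 165 CPM in cKO, against 144, 151 and 150 CPM in Ctrl. All cKO libraries lay above all Ctrl libraries. The means were 166 ± 6.64 CPM in cKO and 148 ± 3.60 CPM in Ctrl (SD, n = 3 each). Its log2 fold change was 0.16 ± 0.04 (SE), with a 95% interval from 0.07 to 0.26 and an adjusted p of 0.0566, just outside the threshold. The adjusted p ran from 0.0335 to 0.345 over the 17 alternative settings, 4 of which called it higher. It was 0.142 without the library labelled Ctrl replicate 1 (log2 fold change 0.14) and 0.345 with GC and length offsets (0.09). Soat1, which esterifies cholesterol for storage, measured 33.7, 37.9 and 38.0 CPM in cKO, against 33.5, 35.4 and 37.1 CPM in Ctrl, with overlap (0.05, adjusted p = 0.785). The summed level of both genes, mostly that of Cyp46a1, was 53.89 ± 2.19 FPKM in cKO and 48.58 ± 1.38 FPKM in Ctrl. Over all 31 genes the sum was 317.1 ± 5.42 FPKM in cKO and 319.3 ± 6.01 FPKM in Ctrl, a difference within the spread between replicates.

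The libraries of the Ctrl group did not sit together for these genes. In the library labelled Ctrl replicate 1, 16 of the 18 synthesis enzymes lay above the mean of their group, against 4 in Ctrl replicate 2 and 5 in Ctrl replicate 3. The median deviation of the enzymes from the Ctrl mean was 0.08 on the log2 scale in that library, -0.05 in Ctrl replicate 2 and -0.02 in Ctrl replicate 3. In the cKO libraries it was -0.0034, 0.0094 and -0.0105. Over all tested genes the median deviation of the library labelled Ctrl replicate 1 was 0.0008. The library with the low Ythdf2 level was also the one with the highest synthesis enzymes among the controls. Without it, 9 of the 31 genes lay lower in cKO with no overlap, 8 of them synthesis enzymes, where 16.0% of all tested genes did.

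**Figure D4:**
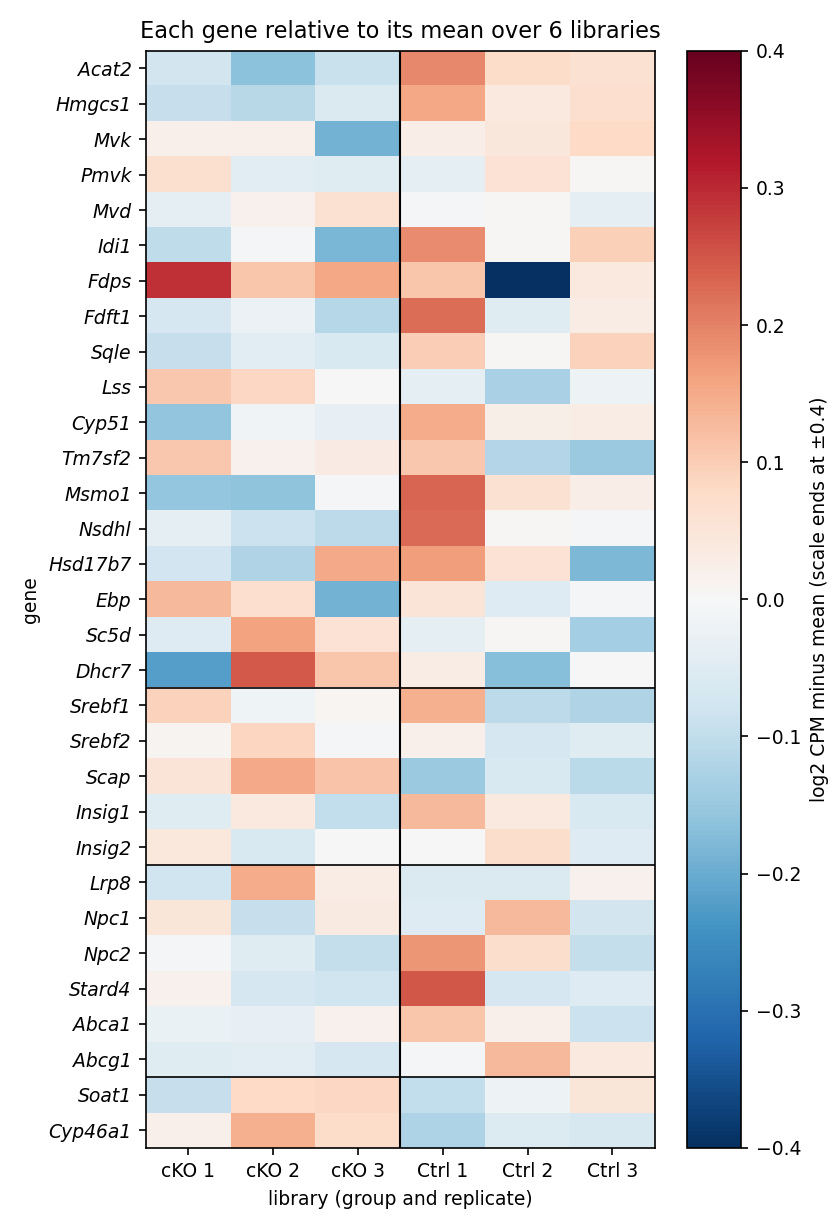
Log2 CPM of each of the 31 genes minus its mean over the 6 libraries, with cKO libraries on the left, Ctrl libraries on the right and black lines between roles; red is above and blue below the gene's mean, and the colours end at 0.4 on either side. In the synthesis block the column of Ctrl 1 is mostly red, and 16 of the 18 enzymes lie above the Ctrl mean in that library.

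The fold changes of the 31 genes were set beside base composition, since the call of Scap was lost with offsets for GC content and length together. Offsets for GC content alone were not run. Scap, Mvd, Cyp46a1, Srebf1, Srebf2, Pmvk and Mvk have a GC content above 55% in their longest transcript, from 56.3% in Mvk to 59.1% in Scap. Of these 7 genes 5 had positive log2 fold changes, with a median of 0.05. Of the 7 genes at or below 45%, which run from 41.9% in Idi1 to 44.7% in Msmo1, 2 had positive values, Sc5d and Soat1, with a median of -0.10. Spearman's rho between GC content and log2 fold change was 0.384 over the 31 genes, which share the same 6 libraries and are not independent. Median GC content was 48.7% for the 31 genes, 49.4% for all tested genes and 55.6% for all genes that rose. With GC and length offsets, the values of Scap and Cyp46a1 moved to 0.10 and 0.09, while those of Hmgcs1, Msmo1 and Acat2 were -0.14, -0.21 and -0.21. The median of the synthesis enzymes was -0.10 under these offsets. That of all genes tested with them was -0.02, against -0.001 in the main fit.

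**Figure D5:**
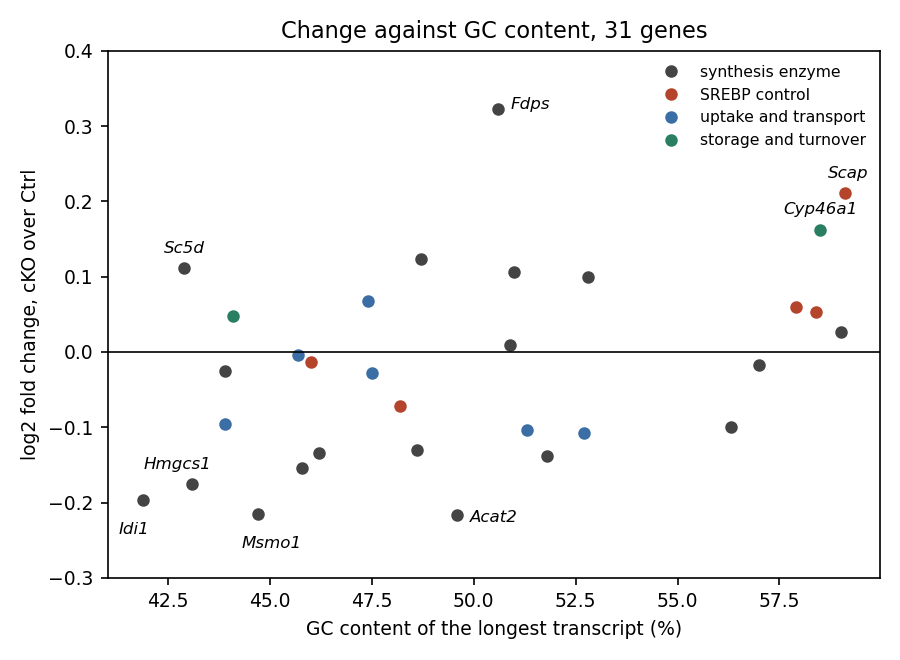
Log2 fold change, cKO over Ctrl, of the 31 genes against the GC content of the longest transcript, coloured by role. Scap and Cyp46a1, at 59.1% and 58.5% GC, lie at the upper right, and Idi1, Hmgcs1 and Msmo1, at 41.9%, 43.1% and 44.7%, lie at the lower left.

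Genes next to the cholesterol pathway gave 2 calls among the 80 tested, counted over 8 lists, where 3.95% of all tested genes were called and 3.07% rose. This is no more than the background, and the 2 genes are given below as single values. Of 14 genes of fatty acid synthesis and desaturation, the SREBP-1 side of the programme, none passed, with a median log2 fold change of -0.05. Mid1ip1 and Thrsp, regulators of lipid synthesis, stood at -0.20 and -0.14, with adjusted p-values of 0.143 and 0.322. Of 10 genes that branch off the mevalonate pathway none passed, with a median of -0.09. Among them Ggps1, geranylgeranyl diphosphate synthase, stood at -0.14 and Fnta, a prenyltransferase subunit, at -0.11. Of 9 genes of SREBP processing and sterol-regulated turnover none passed (median -0.02), and the protease gene Mbtps1, which cleaves SREBP in the Golgi, stood at 0.06, as did Ubxn4. Of 8 genes of LXR and RXR receptors and their co-regulators none passed (median 0.05), and Nr1h2, which encodes LXR-beta, stood at 0.14. Of 14 genes of intracellular sterol transfer none passed (median 0.01), and the endoplasmic reticulum sterol transporter Gramd1a stood at 0.17 and Vps13c at 0.16, with adjusted p-values of 0.0637 and 0.0957. Of 7 genes of oxysterol and bile acid side enzymes 5 were tested and none passed (median -0.01), with Cyp11a1 at 0.43 and Cyp7b1 at -0.16. In the 6 lists without a call by edgeR, DESeq2 called 2 genes, Gramd1a and Vps13c, and limma-voom called 0. An unadjusted p under 0.05 was found for 1 gene of fatty acid synthesis, 1 of the mevalonate branches, 0 of SREBP processing, 4 of sterol transfer and 2 of the oxysterol list. Over all 8 lists it was found for 14 of the 80 tested genes, and for 17.6% of all tested genes. The count of the LXR and RXR list is not reported here.

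Of the 2 genes that rose in these lists, 1 was among 9 other ABC lipid transporters (median 0.05) and 1 among 11 lipoprotein receptors and lipid carriers (median 0.02). Abca2, a lipid transporter abundant in oligodendrocytes, measured 262, 255 and 279 CPM in cKO, against 218, 221 and 233 CPM in Ctrl. All cKO libraries were higher, and the log2 fold change was 0.24 with an adjusted p of 0.00758. The call of Abca2 was kept without the library labelled Ctrl replicate 1 (adjusted p = 0.0185) and lost without cKO replicate 3, on both FPKM scales and with GC and length offsets (0.15, adjusted p = 0.071). Lrp1, a large endocytic lipoprotein receptor, measured 613, 622 and 628 CPM in cKO, against 545, 572 and 562 CPM in Ctrl. Its groups did not overlap either, and the log2 fold change was 0.15 with an adjusted p of 0.0343. Leaving out any 1 of the 6 libraries ended the call of Lrp1, and with GC and length offsets its value was 0.03 (adjusted p = 0.724).

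Markers of the cells that the tissue holds were read beside these values, and their part in the results was not tested. The 10 astrocyte markers summed to 5855 to 5871 CPM in cKO and 6246 to 6419 CPM in Ctrl, without overlap. Of the 10, 3 fell, with a median log2 fold change of -0.11, and the median was -0.11 also without the library labelled Ctrl replicate 1. DESeq2 called 7 of them changed and limma-voom 4, and the share of all tested genes that each tool called is not given here. Among the 7 was Fgfr3, which was higher in cKO with a log2 fold change of 0.21 (edgeR, adjusted p = 0.094). The 10 microglial markers summed to 357.4 to 376.6 CPM in cKO and 413.0 to 448.2 CPM in Ctrl, and 5 of them fell (median -0.27). Without the library labelled Ctrl replicate 1, 4 of them fell and the median was -0.25. Over all tested genes 0.874% fell and 3.07% rose. The 10 oligodendrocyte markers overlapped, with sums of 1397 to 1553 CPM in cKO and 1419 to 1598 CPM in Ctrl, with no call by edgeR, DESeq2 or limma-voom, 0 genes with an unadjusted p under 0.05 and a median of -0.05. That median moved to -0.0011 once the library labelled Ctrl replicate 1 was left out. The 10 granule cell markers summed to 2515 to 2632 CPM in cKO and 2512 to 2635 CPM in Ctrl. Of these, Pdzd2 rose and Stxbp6 fell. Sums also overlapped for the 8 oligodendrocyte precursor markers (207.2 to 221.6 CPM in cKO and 196.8 to 225.6 CPM in Ctrl), the 8 interneuron markers (484.4 to 493.2 CPM in cKO and 436.2 to 490.9 CPM in Ctrl) and the 9 endothelial and mural markers (187.8 to 204.3 CPM in cKO and 188.9 to 198.6 CPM in Ctrl). The 9 mossy cell and pyramidal markers that were found summed to 1380 to 1420 CPM in cKO and 1302 to 1413 CPM in Ctrl, with 2 that rose. The 6 choroid plexus and ependymal markers summed to 27.68 to 29.31 CPM in cKO and 24.62 to 30.07 CPM in Ctrl, and Tmem212 had 0 counts in every library. The summed synthesis enzymes and the summed astrocyte and microglial markers were thus each lower in all cKO libraries than in all Ctrl libraries. Slc1a2 made up much of the astrocyte sum, with means of 2970 CPM in cKO and 3190 CPM in Ctrl. Of the 10 astrocyte markers, 6 were lower in cKO without overlap, where 10.5% of all tested genes were, and 2 had positive values.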

How the data were processed

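RNA of 3 cKO and 3 Ctrl libraries was sequenced, and samples were grouped by their titles. The authors deposited raw counts per gene and FPKM per gene in separate tables. The submitters' processing notes name featureCounts 1.5.0-p3, HISAT2 2.0.5 and StringTie 1.3.3b, and the genome GRCm38. The sources used here do not give the role of each tool, the annotation or the use of strand. The counts hold 239 loci that carry an identifier of an assembled locus or no gene name, and these stayed in the table.

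Counts were fitted for all genes in R 4.3.3 with edgeR 4.0.16 (filterByExpr with minimum count 10 and minimum total 15, TMM scaling, glmQLFit, glmQLFTest, no covariate), with Benjamini-Hochberg adjustment and a threshold of 0.05. The common biological coefficient of variation was 5.67%. FPKM were used for levels between genes and for an alternative test. No 2 libraries of the same group were duplicates, and pairs across the groups were not checked. The tests were checked on simulated counts.

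Alternatives were scaling by RLE or upper quartile, limma-voom (limma 3.58.1), DESeq2 1.42.0, a filter at 1 CPM in 3 libraries or none, only protein-coding genes, limma-trend on FPKM as log2(FPKM + 0.1) or log2(FPKM + 1), a block for the replicate number, and leaving out each library. Offsets for GC content and length (loess, span 0.3, GC from GENCODE M21 for 98.7% of tested genes) and the counts of genes without overlap were added after the data were seen. The 31 genes and the other lists were chosen with earlier results of these data known. Besides the 31 genes, the rule named from each other list the called members, up to 4 of smallest p, or the 2 of smallest p where none was called. A gene that this rule names is not reported here. Copies were found as shared 50-base words between GENCODE transcripts. Promoter sequences are from RefSeq, and 25 of the 31 genes matched by symbol. Of the 31 genes 28 had the same coordinates in GENCODE M21 as in the deposited table.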

Additional observations from a re-analysis of the deposited data

How the results depend on the processing

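Of 527 values of single cholesterol genes over 17 alternative settings, 490 kept their direction and their side of the threshold, 10 passed it newly, 7 lost it and 20 changed sign. The number of cholesterol genes called, 1 by edgeR, was 2 with upper-quartile scaling, 2 with the filter at 1 CPM, 3 with DESeq2, 3 with protein-coding genes only, 4 without a low-count filter, 0 with either FPKM transform and 0 with GC and length offsets. It ran from 0 to 1 when 1 library was left out. The number of all genes called, 668 by edgeR, was 1155 without a low-count filter, 110 with log2(FPKM + 0.1) and 95 with log2(FPKM + 1), and ran from 211 to 536 when 1 library was left out. The cause of these shifts was not tested. Upper-quartile scaling called 486 genes higher and 184 lower in cKO, against 520 and 148. The number of all genes called is not given here for the filter at 1 CPM, DESeq2, limma-voom or protein-coding genes only. Calls of single genes under these settings therefore stand without a background.

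Sign changes were found in uncalled genes alone. With GC and length offsets the log2 fold change was -0.045 for Mvd, 0.0033 for Hsd17b7, -0.0439 for Srebf1, -0.0403 for Srebf2 and 0.0138 for Insig2. When 1 library was left out the values ran from -0.122 to 0.0489 for Hsd17b7, -0.0531 to 0.0991 for Ebp, -0.0007 to 0.219 for Dhcr7, -0.0452 to 0.0148 for Insig2, -0.043 to 0.0589 for Npc1, -0.0554 to 0.0031 for Pmvk, -0.154 to 0.0117 for Stard4 and -0.0784 to 0.016 for Abca1. The median of the 31 genes ran from -0.0452 to 0.0064 and the summed FPKM difference of the synthesis enzymes from -9.45 to -4.77.

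Whether the replicate numbers pair the libraries cannot be settled with 3 libraries per group. The same-number correlations of deviations were 0.101, 0.0221 and 0.00747 for numbers 1 to 3. Those between different numbers ran from -0.0653 to 0.0498, so the value for number 1 was the largest of all. The choroid plexus marker Ttr was also lowest in replicate 1 of both groups. With the replicate block 2 cholesterol genes and 808 genes in all were called, the added gene being Cyp46a1 (adjusted p = 0.0407). Depth limits Fdps, with 12 to 24 counts a library. Strand use and pseudogene reads limit the genes marked as uncertain.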
